A study of Mus musculus with 8 samples.

Results

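The regions described here are stretches of the mouse genome that carried a called peak of acetylated histone H3 lysine 27 (H3K27ac) in silenced neurons and had none after depolarisation with KCl. Peaks of the 8 deposited lists that overlapped by at least 1 bp on chromosomes 1 to 19 and X were merged into 113604 regions. The lost regions were chosen by their own peak calls: a region counted as lost in a culture when both unstimulated lists had a peak in it and neither KCl list did. It became a member when it was lost in the CTX culture, in the MGE culture or in both, and did not show the reverse pattern in the other culture. This gave 5900 lost regions, of which 3687 were lost in CTX and 2346 in MGE, with 133 lost in both. The loss itself is therefore the definition of the group and carries no test.

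All libraries came from primary neurons of C57/BL6 mice, and each of the 4 groups (CTX unstimulated, CTX KCl, MGE unstimulated, MGE KCl) had 2 libraries. CTX usually stands for the cortex and MGE for the medial ganglionic eminence, an embryonic source of cortical GABAergic interneurons. Every culture, the unstimulated ones included, was silenced overnight at day 6 in vitro with 1 µM tetrodotoxin (TTX, which blocks sodium channels) and 100 µM D-AP5 (which blocks NMDA receptors). KCl groups received 55 mM KCl for 2 h at day 7, and unstimulated groups did not. The labels conflict: CTX titles name embryonic day 14, yet the stated source is embryonic day 16 throughout, and MGE libraries too are labelled as cortical neurons. No label says how the 2 replicates of a group were kept apart, so the exact tests reflect only the spread of the libraries at hand, which may be technical.

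H3K27ac is laid down by the acetyltransferases CBP and p300 at active promoters and enhancers and is removed by histone deacetylases. Raised extracellular potassium depolarises neurons and opens voltage-gated calcium channels, and calcium signalling then switches on immediate early genes and their enhancers.

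Because a whole promoter can be read only where a gene start lies in a lost region, the sequences shown are those of the 5 gene starts of protein-coding genes that lay wholly inside a lost region and had the highest lower fold enrichment of the unstimulated pair. Each is the 250 bases before the transcript start on the gene's own strand, 5′ to 3′, from RefSeq's GRCm38.p6 promoter windows, which share coordinates with mm10. Capitals mark CpG dinucleotides, the bases at which promoters of broadly used genes are usually dense. B3galt5, a galactosyltransferase of glycan synthesis, is at chr16:96273263-96273512 (plus strand) and was lost in MGE. Parp12, an ADP-ribosyltransferase, is at chr6:39118350-39118599 (minus strand) and was lost in CTX. Rtel1, a helicase that protects telomeres, is at chr2:181319474-181319723 (plus strand), Rsbn1 is at chr3:103913870-103914119 (plus strand) and Lnp1 is at chr16:56927940-56928189 (minus strand), and all of these were lost in MGE.
B3galt5: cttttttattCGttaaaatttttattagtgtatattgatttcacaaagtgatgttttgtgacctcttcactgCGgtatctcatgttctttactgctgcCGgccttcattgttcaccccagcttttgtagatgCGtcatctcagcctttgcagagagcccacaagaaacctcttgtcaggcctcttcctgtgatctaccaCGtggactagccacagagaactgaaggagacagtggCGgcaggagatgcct
Parp12: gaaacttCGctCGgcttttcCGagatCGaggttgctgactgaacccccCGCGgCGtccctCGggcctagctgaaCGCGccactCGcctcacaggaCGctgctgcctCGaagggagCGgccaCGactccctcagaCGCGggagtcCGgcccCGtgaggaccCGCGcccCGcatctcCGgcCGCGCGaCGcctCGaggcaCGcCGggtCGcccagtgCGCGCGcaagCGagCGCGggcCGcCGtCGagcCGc
Rtel1: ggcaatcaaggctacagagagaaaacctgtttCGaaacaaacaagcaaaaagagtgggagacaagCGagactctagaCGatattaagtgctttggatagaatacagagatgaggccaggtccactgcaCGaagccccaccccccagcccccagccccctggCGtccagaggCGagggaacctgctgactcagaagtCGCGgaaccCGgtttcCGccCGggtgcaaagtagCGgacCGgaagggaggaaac
Rsbn1: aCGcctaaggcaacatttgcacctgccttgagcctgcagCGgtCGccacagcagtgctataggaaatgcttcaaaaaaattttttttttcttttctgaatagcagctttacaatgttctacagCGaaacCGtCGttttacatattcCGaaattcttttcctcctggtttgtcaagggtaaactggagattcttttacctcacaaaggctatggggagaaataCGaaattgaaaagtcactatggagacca
Lnp1: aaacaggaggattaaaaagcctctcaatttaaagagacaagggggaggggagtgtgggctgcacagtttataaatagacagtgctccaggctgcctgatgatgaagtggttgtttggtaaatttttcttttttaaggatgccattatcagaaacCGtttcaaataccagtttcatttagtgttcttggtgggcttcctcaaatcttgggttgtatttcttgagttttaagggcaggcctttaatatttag
The stretches differ widely in CpG density: the printed part of Parp12 holds 41 CpGs at 73.6% G + C, Rtel1 13, Rsbn1 8, B3galt5 6 and Lnp1 1 at 39.6% G + C.

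At B3galt5 the lost region spans chr16:96273011-96273848 and had a fold enrichment over background of 3.56 in MGE unstimulated library 1 and 3.62 in library 2, with no peak in the other 6 lists. Fold enrichment is the linear ratio the authors deposited with each peak, and throughout it describes only a peak within its own list. At Parp12 (chr6:39117838-39118717) the CTX unstimulated libraries had 3.44 and 3.65, and MGE KCl library 2 (3.31) and MGE unstimulated library 2 (3.55) also had a peak. Only the CTX culture therefore met the rule at Parp12. At Rtel1 (chr2:181319273-181320169) the MGE unstimulated libraries had 3.32 and 3.36 while both CTX KCl libraries (3.22 and 3.64) and CTX unstimulated library 2 (3.12) had a peak. The Rsbn1 region (chr3:103913725-103914242) was lost in MGE, at 3.87 and 3.29 without KCl, and had a peak in all 4 CTX lists, at 2.79 and 2.66 with KCl and 3.34 and 3.88 without. At Rtel1 and Rsbn1, in other words, the call was absent with KCl in MGE and present with KCl in CTX.

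The libraries were uneven. Peaks numbered 36035 to 66827 and covered 21.1 to 44.7 Mb, and a peak was called in 28.5% to 55.7% of all merged regions depending on the library. Read depth is unknown, and the deposited q values end near the caller's cutoff (lowest −log10 q between 1.3 and 1.35 in each list), so a lost call is not a measured absence of acetylation. All 16 pan-neuronal marker genes had a peak in every CTX list and 15 to 16 in MGE lists. Genes of cortical glutamatergic identity had peaks at 18 to 23 of 23 genes in CTX lists and 13 to 15 in MGE lists, and GABAergic and MGE genes at 12 to 16 of 24 in CTX and 17 to 21 in MGE. Astrocyte genes had peaks too, at 11 to 14 of 16 genes in CTX lists and 6 to 10 in MGE lists. In such bulk chromatin, fewer cells that carry a mark and less of the mark per cell cannot be told apart.

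The 3687 regions lost in CTX made up 4.23% of the 87261 regions with a peak in any CTX list, and the 2346 lost in MGE made up 3.78% of the 62104 regions with a peak in any MGE list. The reverse pattern, a peak in both KCl lists and neither unstimulated list, was held by 5307 regions in CTX (6.08%) and 4980 in MGE (8.02%). Gained regions thus outnumbered lost ones in both cultures as the lists stand. The order stayed when every list was cut to the same number of peaks, keeping the most significant. This gave 3497 lost and 3879 gained regions in CTX, and 3157 lost and 3839 gained in MGE. It turned when every list was instead cut to the same number of called bases. Then 2730 regions were lost and 1763 gained in CTX, and 3765 lost and 2473 gained in MGE. Of the 3687 reported regions lost in CTX, 466 (12.6%) also overlapped a lost region under the cut to equal called bases, against 1896 of 2346 (80.8%) in MGE. Which of the CTX regions count as lost thus moved with the size of the lists. The 2 shares do not compare the cultures, because the cut was to the size of the smallest list, MGE unstimulated library 2. It trimmed CTX unstimulated library 2 (42.9 Mb) and CTX KCl library 2 (44.7 Mb) most. With only peaks of −log10 q of at least 3, the shares were 23.2% in CTX and 22.8% in MGE.

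The counts also rested on having 2 lists a group. Leaving out CTX unstimulated library 1 gave 17716 regions lost in CTX, leaving out CTX KCl library 2 gave 8118, and leaving out CTX unstimulated library 2 gave 6007. In MGE the count became 7539 without unstimulated library 2, 5984 without unstimulated library 1 and 5228 without KCl library 2. Among the 33235 CTX regions with a peak in both unstimulated lists, 24644 had a peak in both KCl lists and 4889 in 1 of them. The same held for 19220 and 3663 of 25245 MGE regions. Loss from both KCl lists was thus the least common of these outcomes in each culture.

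Lost regions were of middling strength in the lists that called them. The fold enrichment of regions lost in CTX had a median of 3.17 in unstimulated library 1 and 3.25 in library 2, and ran from 1.80 to 5.80 and from 1.58 to 7.46. Regions lost in MGE had medians of 3.30 and 3.14. When all regions of a list were ranked by fold, the median lost region stood at percentile 42.3 and 48.5 in the CTX lists and 39.96 and 41.6 in the MGE lists. Regions with a peak in all 4 lists of the culture stood at 61.1, 73.3, 67.3 and 64.8 in the same lists. Few lost regions were among the strongest: 55, 73, 25 and 30 of them lay above the 90th percentile of the 4 lists, or 1.07% to 1.98%. These ranks come from the lists that chose the members and are a description.

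**Figure D1:**
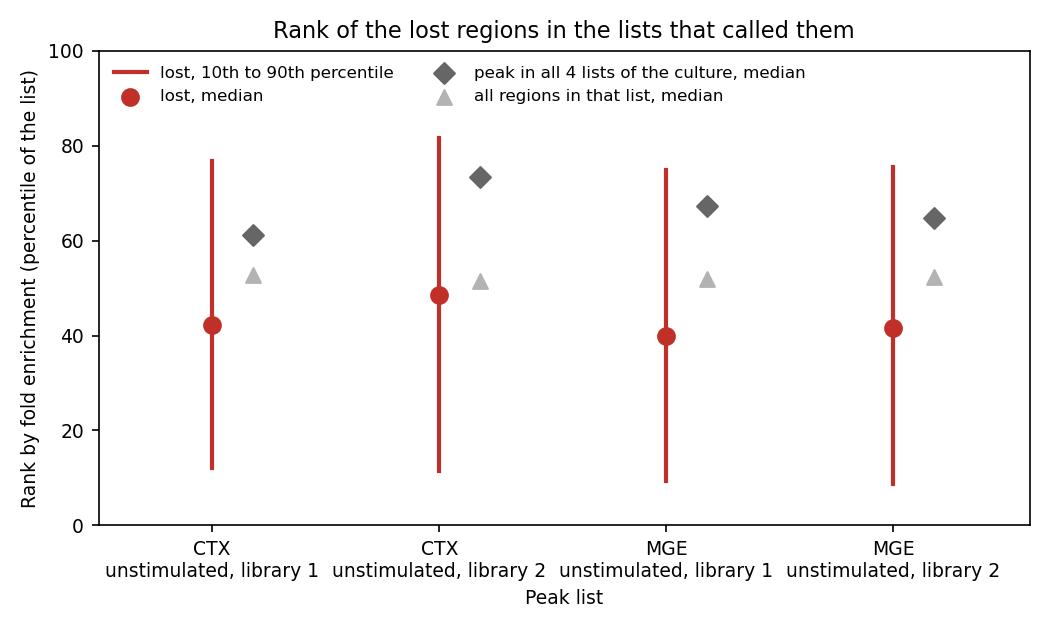
Rank by fold enrichment (y axis, percentile within the list) of lost regions in the 4 unstimulated lists that called them (x axis). Red points and lines are the median and the 10th to 90th percentile of lost regions, diamonds the median of regions with a peak in all 4 lists of that culture, and triangles the median of all regions in that list; lost regions have medians of 39.96 to 48.5, under both comparison medians in every list.

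The peaks of the unstimulated pair also overlapped less tightly at lost regions. A median of 56.3% of the bases called in either unstimulated library were called in both at regions lost in CTX, and 57.2% at regions lost in MGE, against 68.2% and 71.9% at regions with a peak in all 4 lists. At 36 of the CTX and 47 of the MGE lost regions the 2 unstimulated peaks shared no base and were joined only through other peaks. Median width was 589 bp in CTX, 599 bp in MGE and 749 bp for regions lost in both, against 544 bp for all merged regions. Width rose with the number of lists that called a region, from 320 bp at 1 list and 511 bp at 2 to 1446 bp at 8. Regions called in 4 lists had 820 bp, more than those lost in both, which are also in 4.

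The calls of the other culture give a reading that did not decide which regions were lost. Peaks of both cultures did set the bounds of the merged regions, so the reading is not fully independent of the rule. For the reading, the reverse pattern was let in again, which gave 3702 regions lost in CTX whatever their state in MGE, and 2362 lost in MGE whatever their state in CTX. With peaks merged within each culture alone, 3729 and 2463 were lost, and the reading was not repeated on those. Of the 3702 regions lost in CTX, 17.1% had a peak in MGE unstimulated library 1 and 16% in library 2, compared with 7.46% in MGE KCl library 1 and 13% in library 2. Both unstimulated libraries were above both KCl libraries. The mean was 16.6% ± 0.726 (SD, n = 2) without and 10.3% ± 3.95 (SD, n = 2) with KCl, a difference of 6.31 percentage points, with an exact two-sided permutation p of 0.333, the smallest that 2 against 2 libraries can give. Over all merged regions the means ran the other way, 29.8% without and 34.7% with KCl.

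Of the 2362 regions lost in MGE, 25.9% had a peak in CTX unstimulated library 1 and 37.6% in library 2, and 17.5% in CTX KCl library 1 and 26.5% in library 2. Here the ranges overlapped, since KCl library 2 lay just above unstimulated library 1. The means were 31.8% ± 8.29 (SD, n = 2) and 22.0% ± 6.35 (SD, n = 2), a difference of 9.80 points with an exact two-sided permutation p of 0.667. All merged regions had 43.2% without and 45.9% with KCl. Relabelling libraries within both cultures at once gave a mean difference of 8.05 points and an exact permutation p of 0.111, where 0.0556 is the smallest possible, so the difference did not pass 0.05 and could not have. For these same regions, the difference within libraries numbered 1 was 9.62 points for regions lost in CTX and 8.43 points for regions lost in MGE. Within libraries numbered 2 it was 3.00 and 11.2 points. Where the lost regions themselves were chosen anew from libraries numbered 2 alone, the difference for regions lost in CTX was −0.190 points.

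Because library 2 of a group mostly had more peaks, each share was also divided by the share of all merged regions with a peak in the same library, a choice made after the data were seen. For regions lost in CTX this ratio was 0.551 and 0.562 in the MGE unstimulated libraries and 0.260 and 0.320 in the MGE KCl libraries. For regions lost in MGE it was 0.800 and 0.696 in the CTX unstimulated and 0.486 and 0.475 in the CTX KCl libraries. On this scale the treatments did not overlap in either culture, with differences of 0.267 and 0.268 and an exact permutation p of 0.0556 over both cultures, the smallest possible. Gained regions had the opposite order. Those gained in CTX had a peak in 11.5% and 10.4% in the MGE unstimulated and 25% and 36.5% in the MGE KCl libraries, and those gained in MGE in 12.9% and 25.3% in the CTX unstimulated and 35.6% and 49.5% in the CTX KCl libraries.

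**Figure D2:**
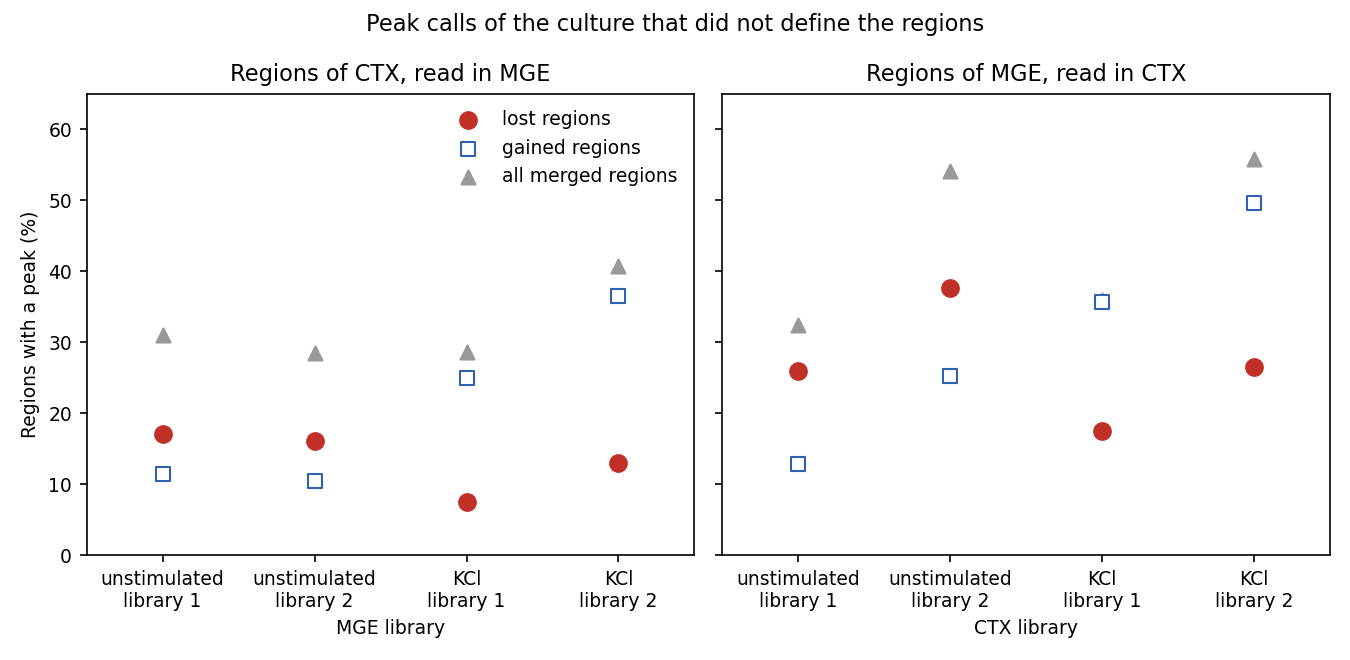
Percentage of regions with a peak (y axis) in each library of the culture whose calls did not class them as lost or gained (x axis), for regions lost (red circles), regions gained (open squares) and all merged regions (grey triangles). Left, regions of CTX read in MGE, where lost regions have 17.1% and 16% without and 7.46% and 13% with KCl; right, regions of MGE read in CTX, where they have 25.9% and 37.6% without and 17.5% and 26.5% with KCl, and gained regions have the opposite order in both panels.

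Most lost regions had no call in the other culture at all. Of the 3702 regions lost in CTX, 2821 (76.2%) had no peak in any MGE list, 353 (9.54%) had peaks in MGE unstimulated lists only, 105 (2.84%) in MGE KCl lists only and 423 in lists of both treatments, 187 of them in all 4. Of the 2362 lost in MGE, 1351 (57.2%) had no CTX peak, 340 (14.4%) had one in unstimulated lists only, 74 (3.13%) in KCl lists only and 597 in both, 294 of them in all 4. Where the other culture had a call, it was in unstimulated lists only for 40.1% of regions lost in CTX, against 18.1% of all regions with an MGE peak. The corresponding shares for regions lost in MGE were 33.6%, against 23.1% of all regions with a CTX peak. The other 4 libraries held no peak in 4172 of the 5900 members, which were thus known from 2 libraries alone.

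The 133 regions lost in both cultures had a call in exactly the 4 unstimulated lists and in none of the 4 KCl lists. They were 3.59% of the regions lost in CTX and 5.63% of those lost in MGE. Ranked by the lowest of their 4 folds, the first was a region at Rdm1, which encodes a RAD52-related DNA repair protein, at chr11:101626738-101627375, within 2 kb of a gene end. Its fold enrichment was 4.49 and 5.45 in the CTX and 4.93 and 4.13 in the MGE unstimulated libraries. A KCl peak nonetheless began within 0.577 kb in CTX and 0.635 kb in MGE, so the loss at Rdm1 lay close to a KCl call. The next, inside Kifc3, a minus-end-directed kinesin (chr8:95122275-95122916), had 4.63 and 5.62 in CTX and 4.05 and 4.65 in MGE, and its nearest KCl peaks were 18.9 kb and 18.6 kb away. The region beyond Nkx2-6, a homeobox gene (chr14:69162384-69163055), lay 8.75 kb from the gene and 131 kb from any KCl peak of either culture, with folds of 4.64 and 4.2 in CTX and 4.06 and 3.83 in MGE. Rdm1 and Nkx2-6 thus show both forms of a lost call: a region with a KCl peak close by, and one with no KCl peak for a long way around.

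The other regions among the 15 highest ranked in this way include the following, named with their nearest genes. A region 41.9 kb from Trh, the gene for thyrotropin-releasing hormone (chr6:92286563-92287588), had 3.35 and 4.32 in CTX and 4.68 and 4.50 in MGE. One 23.6 kb from Batf3, a basic leucine zipper factor of the AP-1 family (chr1:191132544-191133087), had 3.27 and 3.73 in CTX and 3.26 and 3.27 in MGE. Those near Bcl9, a coactivator of Wnt signalling (chr3:97349212-97349854), had 4.17 and 3.44 in CTX and 4.23 and 3.35 in MGE. All 3 were called in the 4 unstimulated libraries and in no KCl library. The region inside Dlgap2, a scaffold protein of the postsynaptic density (chr8:14741295-14742082), had 3.26 and 3.43 in CTX and 3.64 and 3.23 in MGE, with a KCl peak 0.195 kb and 0.263 kb away. Supt3, Lmntd1, Scarb1, Wdtc1, Topaz1, Sh3pxd2a, Mmd2 and Ipo11 completed the 15 highest. At Ipo11, an import receptor, 2 of 6 lost regions were lost in both cultures, and no gained region was assigned to the gene.

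The 10 strongest regions of each culture lay over 2 kb from a gene end, with the exception of Rdm1. In CTX, a region inside Lrba, a regulator of vesicle trafficking (chr3:86434683-86435497), had 5.80 and 4.48 in the unstimulated libraries, no MGE peak, and no CTX KCl peak within 200.03 kb. A region 23.5 kb from Tnks2, a tankyrase (chr19:36810224-36810664), had 4.77 and 4.83, but a KCl peak lay 0.317 kb away. A region inside Col6a1, a collagen VI chain (chr10:76713706-76714418), had 4.82 and 4.44. In MGE, a region 14 kb from Lrrn1, a leucine-rich repeat membrane protein (chr6:107584195-107584916), had 5.00 and 4.84 and its nearest KCl peak at 52.7 kb. A region inside Eya4, a transcriptional coactivator with phosphatase activity (chr10:23309417-23309859), had 5.41 and 4.75. Neither the Lrrn1 nor the Eya4 region was called in any CTX list. By contrast, the region inside Immp1l, a mitochondrial inner membrane peptidase (chr2:105913678-105914213), was lost in MGE at 4.87 and 4.66 while all 4 CTX lists called it, at 4.38 and 5.61 with KCl and 5.96 and 4.06 without.

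The rule turns on the caller's threshold, a −log10 q near 1.3. The members that only just held both unstimulated calls in CTX were at Il1rap (−log10 q of 1.35 and 4.36), Wscd2 (1.39 and 2.03) and Marchf3 (1.40 and 4.47). Regions that only just failed, through a single weak peak in CTX KCl library 1 with a −log10 q of 1.35, lay near Izumo1r, Col9a1 and Minpp1, where the unstimulated values were 2.35 and 5.89, 2.02 and 5.86, and 3.83 and 7.35. In MGE the weakest members with an assigned gene were at Carmil1 (1.38 and 2.83) and Cracr2a (2.29 and 1.38). Regions that just failed in MGE lay near Hnmt (2.58 and 2.63, with 1.37 in KCl library 1), Samd7 (2.08 and 3.16, with 1.38 in KCl library 2) and Man2a1 (4.37 and 2.02, with 1.38 in KCl library 2). Each of these 6 outside regions had a single KCl peak near the threshold in its culture.

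KCl peaks lay close to a part of the lost regions. The median distance from a lost region to the nearest KCl peak of its culture was 10.2 kb in CTX and 9.82 kb in MGE. For 762 regions in CTX (20.7%) and 569 in MGE (24.3%) it was 1 kb or less, and for 398 and 307 it was over 50 kb. Gained regions lay at like distances from unstimulated peaks, 8.69 kb in CTX and 12 kb in MGE. Lost regions seldom bordered gained ones: the median distance to the nearest gained region was 177 kb in CTX and 163 kb in MGE. Another lost region of the culture lay within 1 kb for 233 regions in CTX (6.32%) and 146 in MGE (6.22%). A gained region lay that close for 0.353% in CTX and 1.15% in MGE. The median distance to the nearest other lost region was 122 kb in CTX and 200 kb in MGE. Most losses were thus single regions, though a neighbour within 1 kb was more often lost than gained.

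Around regions lost in CTX the flanks of 5 kb on each side held 13.8 and 31.8 called bp per kb in the unstimulated libraries and 11.5 and 22.5 in the KCl libraries. Around regions lost in MGE they held 21.5 and 18.8 without and 14.6 and 22.1 with KCl. Per Mb called in the library, the unstimulated lists were above the KCl lists around both: 5.84 and 7.41 against 4.03 and 5.03 called bp per region in CTX, and 9.34 and 8.95 against 6.82 and 6.89 in MGE. These flanks share peaks with the rule's own contrast and are given without a test. In the MGE lists, the flanks of regions lost in CTX held 4.50 and 4.27 called bp per region and Mb without and 3.48 and 3.82 with KCl. In the CTX lists, the flanks of regions lost in MGE held 5.73 and 6.04 without and 5.01 and 5.55 with KCl.

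Lost regions lay mainly away from gene ends. Of the 5900, 363 (6.15%) lay within 2 kb of either end of a protein-coding gene, 40.6% elsewhere in a gene and 53.2% outside genes. The share near gene ends was 5.78% in CTX, 7.12% in MGE and 12.8% (17 of 133) in both, against 14.7% of all merged regions, 10.7% of regions gained in CTX and 14.9% of those gained in MGE. This share climbs steeply with the number of lists that call a region, from 5.81% at 1 list to 62.3% at 8, and a lost region can be in at most 6. Among regions with a peak in 2 of the 8 lists it was 4.70% for members and 6.63% for others, with 3 lists 7.65% and 7.91%, with 4 lists 9.40% and 8.77%, with 5 lists 12.5% and 16.5%, and with 6 lists 10.2% and 23.8%. At matched numbers of lists, then, members were lower in 4 of 5 classes, and the gap was widest among regions called in 6 lists. Across chromosomes the members' share of merged regions ran from 2.81% on X (62 of 2206) to 6.11% on chromosome 9.

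**Figure D3:**
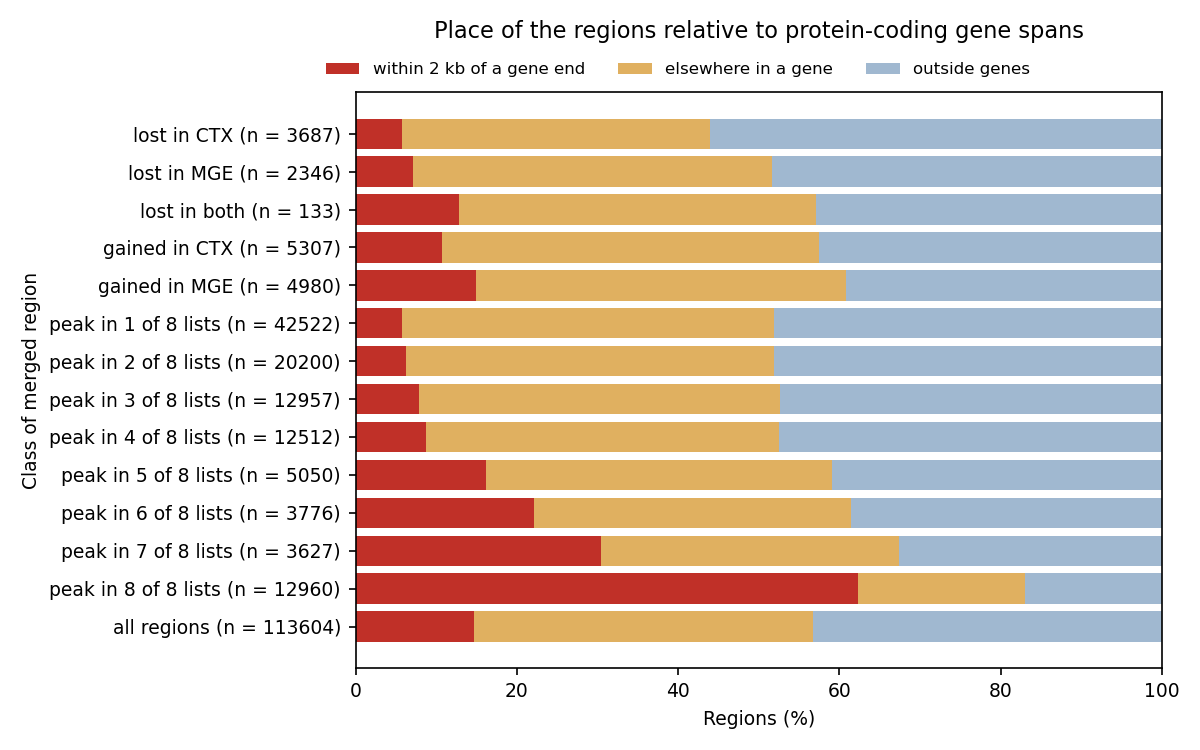
Place of merged regions relative to protein-coding gene spans (x axis, percentage of regions) by class (y axis, number of regions in brackets). Bars add to 100%; the share within 2 kb of a gene end is 5.78% for regions lost in CTX and 7.12% in MGE, against 10.7% and 14.9% for gained regions, and it grows from 5.81% to 62.3% with the number of lists that call a region.

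Among lost regions near a gene end, a few lay at genes with known roles. Besides Rdm1, a region at Rela, a subunit of NF-κB (chr19:5648338-5648944), was lost in MGE, at 3.99 and 3.93 without KCl, while CTX KCl library 1 (4.10) and the CTX unstimulated libraries (5.12 and 4.43) had a peak. A region at Ndc80, a kinetochore protein (chr17:71496921-71498007), was called only in the MGE unstimulated libraries, at 4.38 and 4.12. A region 1.79 kb from Abca5, a membrane transporter (chr11:110267162-110267582), was called only in the CTX unstimulated libraries, at 4.21 and 4.22. At Rela, then, only MGE met the rule, although CTX KCl library 2 had no peak there either. At Ndc80 and Abca5 the other culture had no call to lose. Tmem189, Arl11, Tulp2, Mia, Atp23 and Sec23ip were the others among the 10 highest.

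Promoter windows of RefSeq (250 bases before to 50 after a gene start) show what the few lost promoters were made of. Of 32585 windows, 140 were touched by 125 lost regions, that is by 2.12% of lost regions compared with 9.31% of all merged regions. Of these windows, 71 belonged to 68 protein-coding genes. Their median G + C was 52.8%, against 60% for windows touched by gained regions, 57.0% for windows of other regions with a peak in 2 of the 8 lists, and 62.7% for windows of regions with a peak in all 8. The CpG ratio, observed over expected from base composition, was at least 0.6 in 32.9% of lost windows (46 of 140), in 64.9% of gained, in 44.9% of the other 2-list windows and in 80.4% of the windows in all 8 lists. It was 36% over all windows. The classes also differed in their make-up: 50.7% of lost windows belonged to protein-coding genes, against 79.6% of gained, 64.96% of the other 2-list windows, 86.7% of those in all 8 lists and 64.5% of all windows. Among protein-coding windows alone, the CpG ratio was at least 0.6 in 52.1% of lost (37 of 71), 72.3% of gained, 59.5% of other 2-list and 82.7% of all-8 windows, and in 48.1% of all coding windows. For coding windows the cultures differed: the share was 40% for regions lost in CTX (14 of 35) and 64.9% in MGE (24 of 37). The MGE share was above that of the other 2-list coding windows. Pooled over both cultures, the lost windows had the lowest share of the 4 region classes in both readings, with no test of the differences. The printed promoters of Lnp1 and Parp12 show the spread within the class.

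**Figure D4:**
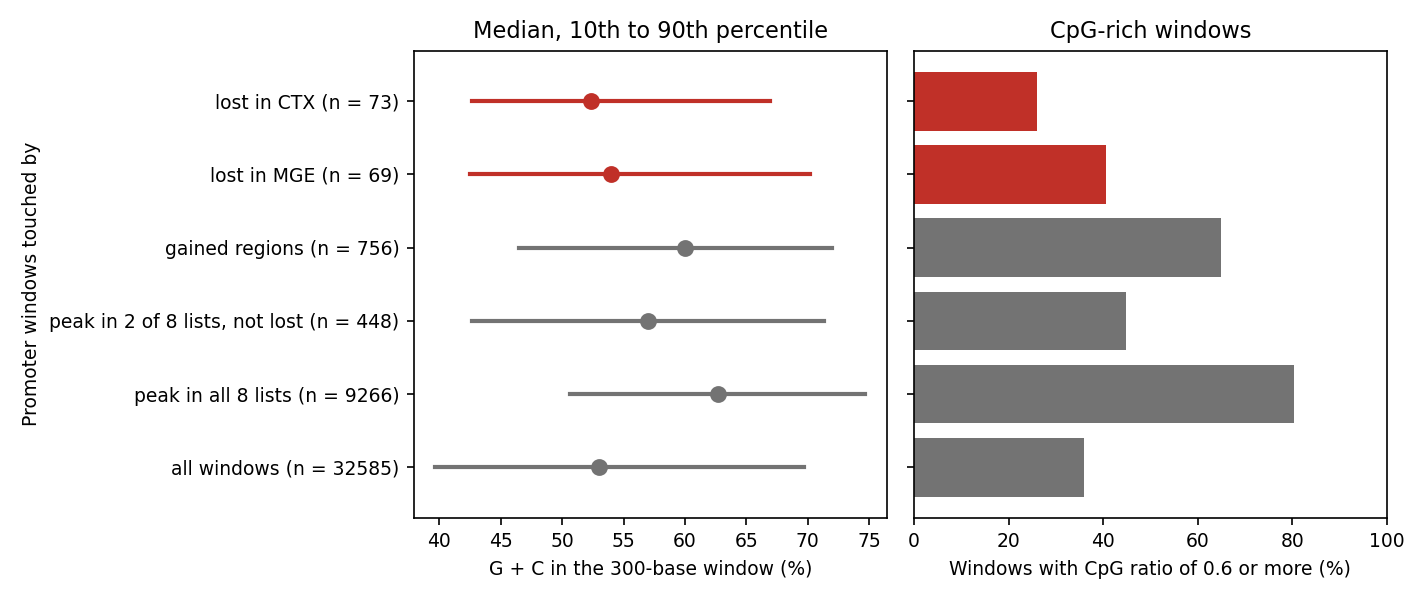
Base composition of 300-base RefSeq promoter windows by the class of region that touches them (y axis, number of windows in brackets). Left, median and 10th to 90th percentile of G + C (%); right, percentage of windows with a CpG ratio of at least 0.6, which is 26% for regions lost in CTX and 40.6% in MGE, against 64.9% for gained regions and 80.4% for regions in all 8 lists.

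Short motifs were counted on both strands of the same 300-base windows. The E-box CANNTG was in 79.3% of lost windows and 72.3% of all, and CAGCTG, an E-box bound by proneural factors that is contained in the first, in 23.6% and 16.4%. The 10-letter core bound by MEF2 factors was in 7.14% (10 of 140) and 3.71%, and ACAATNG, a SOX core, in 12.1% and 8.14%. The GC box GGGCGG was in 32.1% of lost windows, 35.9% of all, 62.0% of gained and 66.5% of windows in all 8 lists, in the same order as the CpG content. TGANTCA, bound by AP-1, was in 7.14% and 7.85% of all. The cyclic AMP response element TGACGTCA was in 0 of 140 lost windows, 1.80% of all and 4.76% of gained windows. TATAAA was in 10.7% and 13.7% of all. The NFI half-site pair (0% and 0.0368%), the EGR site GCGTGGGCG (0.714% and 0.617%), the RFX core (1.43% and 0.691%) and the octamer ATGCAAAT (0.714% and 1.75%) were rare in both. These are matches of letters in windows that differ in base composition, not sites, and were not tested.

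Of the 5900 lost regions, 4626 were within 100 kb of a protein-coding gene and were assigned to the nearest one, and 1274 were farther away. They fell to 3004 of the 15216 genes with any merged region, or 19.7%. The loss was spread thinly: 2066 genes had a single lost region, 938 had 2 or more, and 76 had 5 or more. Genes with 5 or more spanned a median of 392 kb, against 21.2 kb for genes with regions but no lost one, so counts of lost regions per gene went with gene length and number of regions. Dlg2, a postsynaptic scaffold, had 11 lost regions of 177, close to the share over all genes of 5.04%. Ptprt, a receptor tyrosine phosphatase, had 11 of 80, and 10 of these were called nowhere but in the 2 unstimulated libraries of the culture that lost them. Nrxn3, a presynaptic adhesion protein, had 9 of 147. Cdh13, Dab1, Macrod2, Msra and Ank2 had 8 of 95, 8 of 140, 8 of 104, 8 of 85 and 7 of 65.

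Galnt18 and Cradd had few or no gained regions beside their losses. Galnt18, a glycosyltransferase of the O-linked type, had 8 lost of 32 regions, 7 in CTX and 2 in MGE, and no gained region in either culture. The Galnt18 region lost in both cultures (chr7:111411229-111412331) lay 59.3 kb outside the gene and had 3.48 and 3.5 in CTX and 3.29 and 3.20 in MGE. The other Galnt18 regions lost in CTX had folds of 2.70 to 3.6 in unstimulated library 1 and 3.16 to 3.95 in library 2. Peaks over the Galnt18 gene span summed to 2.18 and 7.05 kb in the CTX unstimulated and 1.43 and 4.61 kb in the CTX KCl libraries, and to 4.12 and 6.17 kb and 2.64 and 5.35 kb in MGE. Library 2 was above library 1 in every group, so that the treatments overlapped.

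Cradd, an adaptor protein of cell death signalling, had 8 lost of 40 regions, 6 in CTX and 3 in MGE, with 1 gained in CTX and none in MGE. The Cradd region lost in both cultures (chr10:95227429-95228277) had 3.42 and 3.30 in CTX and 3.39 and 2.67 in MGE. Peaks over the Cradd span summed to 3.55 and 9.19 kb without and 2.66 and 4.88 kb with KCl in CTX, and to 5.63 and 3.91 kb without and 2.10 and 4.11 kb with KCl in MGE. Each KCl value at Cradd was under the mean of its unstimulated pair, but the pairs overlapped in both cultures. By share of regions, Gjb5, a gap junction protein outside this rule that was picked after its values were seen, was higher: it lost 6 of 12 regions, all in CTX, with no gained region.

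Immediate early genes lost few regions. Over 31 immediate early genes, 3 of 176 regions were lost (1.70%), against 5.04% of the 91813 regions assigned to any gene, while 24 were gained in CTX and 27 in MGE. Of the 91813 regions, 4383 were gained in CTX and 4088 in MGE. A region 23.9 kb from Ier5 (chr1:155071443-155072478) was lost in CTX, at 3.04 and 3.37. A region at a gene end of Klf10, a zinc finger factor (chr15:38298603-38299054), was lost in MGE, at 4.09 and 2.80. A region 54.3 kb from Sik1, a salt-inducible kinase (chr17:31789073-31789986), was lost in CTX, at 2.84 and 2.47. The lost pieces at Klf10 and Sik1 lay 0.340 kb and 0.259 kb from a KCl peak, and the Ier5 region 10.2 kb. No lost region was assigned to the other 28 genes of the list, Fos, Npas4, Arc and Egr1 among them.

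Late activity-regulated genes lost 7 of 209 regions (3.35%), at Plk2, Vgf, Inhba, Rgs2, Rgs4 and Stc1, with 20 gained in CTX and 17 in MGE. By genes, 6 of 26 (23.1%) had a lost region, near the 19.7% of all genes with a region. The region at Vgf, a secreted neuropeptide precursor (chr5:137032143-137032727), was lost in CTX at 3.87 and 3.67 and lay 0.132 kb from a KCl peak. That at Rgs4, a regulator of G protein signalling (chr1:169748652-169749005), was lost in CTX at 3.14 and 2.84, and lay 0.088 kb from one. Regions farther out were lost at Inhba, an activin subunit (74.5 kb, 3.03 and 2.94 in CTX), and at Plk2, a polo-like kinase (43.1 kb, 2.95 and 2.98 in CTX; 53.8 kb, 3.38 and 3.46 in MGE). At Vgf and Rgs4 a KCl peak thus lay close to the lost region. One also lay 0.415 kb from the Plk2 region lost in CTX and 0.864 kb from the Rgs2 region lost in MGE.

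Genes of neuronal identity lost regions in both cultures, and the difference between cultures was not tested. Genes of GABAergic and MGE identity lost 21 of 416 regions (5.05%), 15 of them in MGE and 7 in CTX, and the same genes gained 26 in MGE and 10 in CTX. Of the 91813 regions assigned to any gene, 1905 were lost in MGE and 2841 in CTX, and 4088 were gained in MGE and 4383 in CTX. Nkx2-1, the homeobox gene that specifies the MGE, lost 3 of 11 regions, all in MGE (chr12:56440453-56440871, 3.08 and 3.20; chr12:56441785-56442359, 3.31 and 3.37; chr12:56471786-56472240, 3.19 and 3.29), which lay 59.7 to 91.1 kb from the gene and had no CTX call. Their nearest MGE KCl peaks were 29.4, 27.9 and 0.882 kb away. Erbb4, a neuregulin receptor of interneurons, lost 4 of 97, all in MGE, at folds of 2.48 to 3.65. MGE KCl peaks lay 0.857, 0.307, 0.078 and 5.44 kb from the Erbb4 regions, so most of them bordered a KCl call. Slc32a1, the vesicular GABA transporter, lost 2 of 10 in MGE, 1 of them 0.918 kb from the gene (chr2:158616665-158617084, 2.22 and 2.56). Nkx2-1, Erbb4 and Slc32a1 regions were called in no CTX list, so whether CTX would have kept them cannot be read. Dlx2, a homeobox gene of GABAergic precursors, lost 2 of 18 regions, both in CTX, at 2.69 and 3.09 and at 2.43 and 2.63. The Dlx2 regions lay 1.01 kb and 0.7 kb from a CTX KCl peak. Cxcr4, a chemokine receptor of migrating interneurons, lost 2 of 18 regions, 1 of them in both cultures (chr1:128607580-128608445, 3.31 and 3.6 in CTX, 3.04 and 3.53 in MGE). A second Cxcr4 region, 0.711 kb from the gene (chr1:128593010-128593535), was lost in CTX at 3.12 and 2.71 and was called in all 4 MGE lists.

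Genes of cortical glutamatergic identity lost 16 of 541 regions (2.96%), 12 in CTX and 4 in MGE, with 21 and 12 gained. Over all members, more regions were lost in CTX than in MGE as well. Sox5, a factor of deep-layer neurons, lost 5 of 112 regions, all inside the gene and all in CTX, at folds of 2.65 to 4.49 in unstimulated library 1 and 2.92 to 3.56 in library 2. CTX KCl peaks lay 5.72, 1.14, 0.066, 0.885 and 0.123 kb from the Sox5 regions. Bcl11b, which specifies subcerebral projection neurons, lost 4 of 29 regions, 2 in CTX outside the gene (chr12:107875637-107876017, 3.27 and 2.99; chr12:108049264-108050249, 4.09 and 2.78) and 2 in MGE inside it (2.29 and 2.35; 1.64 and 1.79). The Bcl11b regions lost in MGE lay 0.204 kb and 0.209 kb from an MGE KCl peak, and those lost in CTX 8.36 kb and 14.2 kb from a CTX one. Fezf2, upstream of Bcl11b in the same neurons, lost 1 of 8 in CTX at 8.65 kb (chr14:12355454-12356073, 3.31 and 3.07). Neurod6, a basic helix-loop-helix factor of cortical excitatory neurons, lost 1 of 18 in CTX at 3.49 and 2.84. At Sox5, 4 of the 5 regions had no MGE call.

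Neuronal RNA-binding proteins, which direct splicing and RNA stability, lost 29 of 611 regions (4.75%), 13 in CTX and 16 in MGE. This share is near the 5.04% of all assigned regions, and the same genes gained 19 regions in CTX and 12 in MGE. By genes, 11 of 22 had a lost region, against 19.7% of all genes with a region. The listed genes had a longer median span than all genes with a region. Rbfox3, the splicing factor known as NeuN, lost 5 of 36 regions, 4 in CTX and 1 in MGE. A pair of the Rbfox3 regions adjoined each other (chr11:118813543-118814137, 3.27 and 4.14; chr11:118814241-118815235, 3.09 and 3.37), and both lay over 18 kb from a CTX KCl peak. Rbfox1, a paralogous splicing factor, lost 5 of 79, 3 in CTX and 2 in MGE, at folds of 2.67 to 3.46. Srrm4, which drives neuronal microexon splicing, lost 5 of 25, 2 in CTX and 3 in MGE, among them chr5:116668831-116669141 in CTX (3.12 and 4.14) and chr5:116484335-116485022 in MGE (3.51 and 3.17). The named Srrm4 regions lay 0.434 kb and 0.371 kb from a KCl peak of the culture that lost them. Celf2 lost 4 of 148, 2 in each culture. At Msi2, which lost 2 of 78, a region lost in MGE (chr11:88583872-88585112, 2.11 and 2.12) was called in all 4 CTX lists, at 2.07 to 2.21. An MGE KCl peak lay 0.39 kb from that region. No Rbfox1 region was lost in both cultures.

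Channel and synapse genes lost regions at about the share of all genes. The share was 6.12% for sodium and calcium channels (29 of 474), 5.17% for glutamate receptors and scaffolds (53 of 1025), 5.17% for axon guidance (46 of 890), 4.71% for synaptic vesicle release (17 of 361), 4.52% for calcium and calmodulin kinases (15 of 332), 4.51% for potassium channels (26 of 576), 4.42% for GABA receptors (11 of 249) and 4.36% for synaptic adhesion (49 of 1124). All these lie near the 5.04% of all assigned regions. Cacna1d and Cacna1e, voltage-gated calcium channels, lost 6 of 26 and 6 of 51 regions. Grin2b, an NMDA receptor subunit, lost 6 of 49, all in CTX. Cntn5 and Dscam, adhesion proteins, lost 5 of 129 and 5 of 66. A region near a gene end of Kcnc1, a fast potassium channel of interneurons (chr7:46438635-46439273), was lost in both cultures, at 3.43 and 3.79 in CTX and 2.98 and 2.82 in MGE. At Camk2b, a calcium/calmodulin kinase subunit, a region near a gene end (chr11:6065839-6066404) was lost in CTX at 2.47 and 2.14 and was called in 3 of 4 MGE lists, KCl library 2 among them.

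Among lists for other cells, lost regions made up 2.78% for astrocytes (4 of 144), 3.06% for the oligodendrocyte lineage (3 of 98), 4.35% for microglia (1 of 23), 3.79% for neural progenitors (5 of 132), 4.01% for pan-neuronal genes (12 of 299), 3.45% for genes silent in neurons (2 of 58, both at Ttn) and 0% for housekeeping genes (0 of 43). Endothelial and mural genes had 7 of 46 (15.2%), at Pecam1, Cdh5, Flt1, Kdr and Egfl7, all known from blood vessel endothelium. Of these regions, 5 were lost in CTX and 2 in MGE, while the list's genes gained 2 regions in CTX and 3 in MGE. Only Flt1 and Egfl7 regions are described singly. A region inside Flt1, a VEGF receptor (chr5:147671451-147672117), was lost in CTX at 3.70 and 4.78. A second inside Flt1 (chr5:147626238-147627784) was lost in CTX at 3.81 and 4.30, and in MGE it was called in both unstimulated libraries (4.08 and 4.4) and in KCl library 2 (3.08). A region inside Egfl7 (chr2:26586496-26587254) was lost in CTX at 3.46 and 3.58, and in MGE it had 4.14 and 3.97 without KCl and 3.12 in KCl library 2. At the second Flt1 region and at Egfl7 the MGE libraries thus had 1 call fewer with KCl too. Peaks over the 18 endothelial and mural genes covered 5.19 and 9.19 kb in CTX unstimulated, 3.76 and 6.78 kb in CTX KCl, 4.02 and 4.45 kb in MGE unstimulated and 2.72 and 7.10 kb in MGE KCl libraries, at 4 to 8 of the 18 genes, and no merged region was assigned to Cldn5, Tek, Tie1, Esam, Slco1a4, Acta2, Kcnj8 or Vtn. The ranges overlapped between treatments in both cultures, and the part of such cells in the lost regions was not tested.

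**Figure D5:**
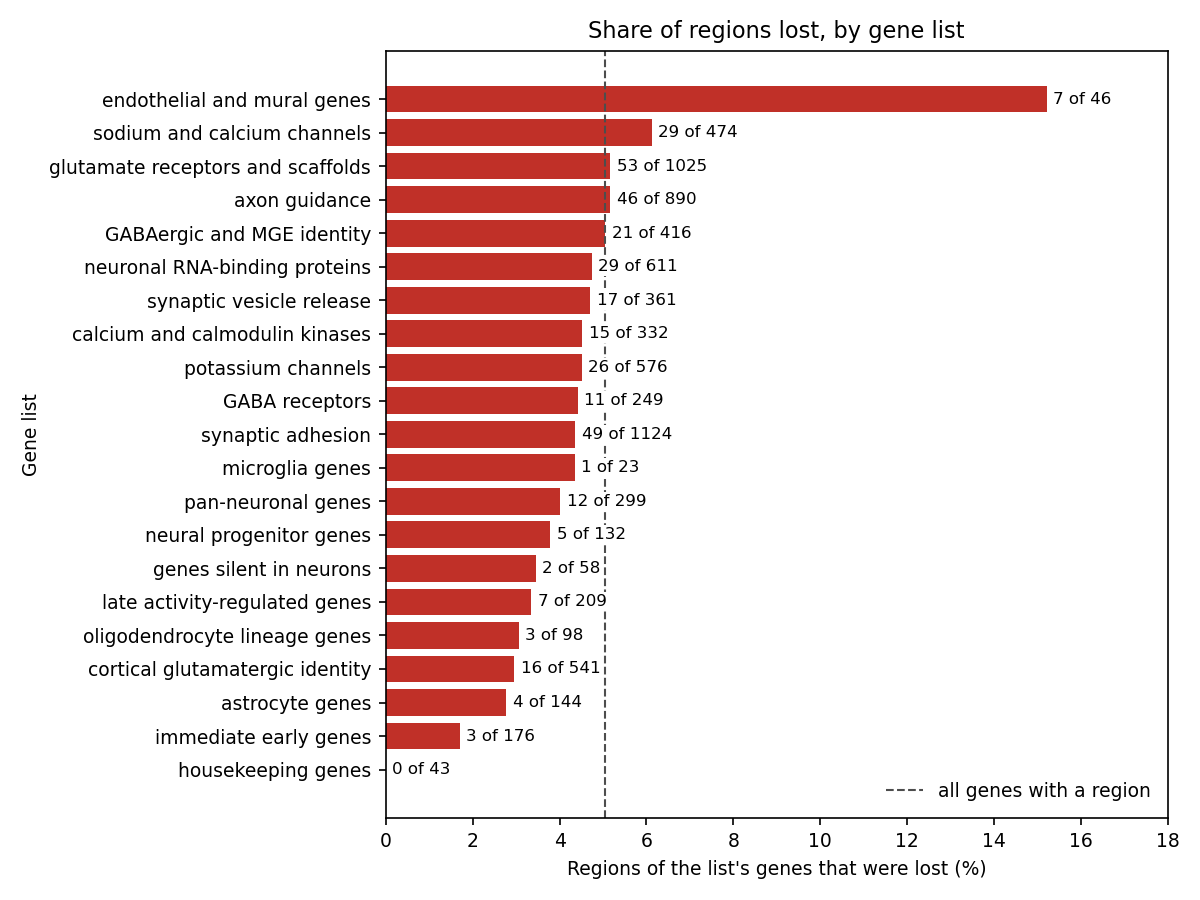
Percentage of the regions assigned to each list's genes that were lost in either culture (x axis) by gene list (y axis), with the number lost of the number of regions beside each bar. The dashed line is the 5.04% of all genes with a region; immediate early genes (1.70%) and housekeeping genes (0 of 43) lie below it, most neuronal lists near it, and endothelial and mural genes (15.2%, 7 regions) above.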

How the data were processed

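H3K27ac chromatin immunoprecipitation (antibody ab4729) and sequencing gave 8 broad-peak lists, 1 per library, in 4 groups of 2, grouped by title. The build was mm10, and MACS3 3.0.0a7, Bowtie2 2.3.3, deepTools 3.4.3 and cutadapt 1.18 are named, per the submitters' processing notes. The part each tool played, its settings and any input control were not given in the sources used here. Peak names carry the word unfiltered, and those of both MGE library 1 lists carry no replicate tag. For each peak the authors deposited a fold enrichment, a linear ratio, and a −log10 p and −log10 q. Read depth is unknown.

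Peaks were merged, and regions classed, with Python 3.11.15, numpy 2.4.6 and pandas 2.3.3; figures used matplotlib 3.10.9. Peaks elsewhere than on chromosomes 1 to 19 and X (29) were dropped. A region's fold in a library is that of its highest peak. The classing was tested on simulated lists. Gene spans and promoter windows were RefSeq's for GRCm38.p6 (21631 protein-coding genes), without strand or exons for spans, and a region went to the span it overlaps (the shorter of several) or else the nearest within 100 kb. A genome sequence was not used here, so sequence was read only in promoter windows. Shares in the other culture were compared by exact two-sided permutation of libraries within cultures.

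Members and lists were chosen with earlier results of these data known. Named were the 15 regions lost in both cultures with the highest lowest fold, the 10 strongest per culture, the 10 genes with most lost regions, lost regions at genes of the immediate early, late, GABAergic, glutamatergic and RNA-binding lists, the 10 strongest near gene ends and 3 on each side of the rule per culture. Not all are described singly, some items are not reported here, and Gjb5, Ipo11, Kcnc1, Camk2b, Flt1 and Egfl7 were picked after their values were seen. Whether replicate numbers pair the libraries is unknown. Correlations of deviations from group means ran from −0.0378 to 0.0398 over regions, which cannot tell whether libraries of the same number shared a batch. Library 2 had more peaks than library 1 in every group but MGE unstimulated. Alternatives were stricter q values, equal list sizes, other merging and coverage rules, each library left out, a replicate block, and, added after seeing the data, single library numbers and shares relative to all regions.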

Additional observations from a re-analysis of the deposited data

Results flagged for a closer look

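Some regions moved in opposite directions in the cultures: 15 were lost in CTX and gained in MGE, and 16 were lost in MGE and gained in CTX, and these 31 are not members. At Peak1, a pseudokinase gene (chr9:56308947-56310190), the folds were 3.43 and 3.63 in the CTX unstimulated and 4.12 and 4.46 in the MGE KCl libraries, with no peak in the other 4 lists. Inside Nr3c2, the mineralocorticoid receptor gene (chr8:77186841-77187723), they were 3.44 and 2.72 in the MGE unstimulated and 2.72 and 3.03 in the CTX KCl libraries. The difference between cultures was not tested at any of the 31, and both genes were picked after their values were seen. Beside these, 133 regions were lost in both cultures, or 3.59% of the 3702 lost in CTX and 5.63% of the 2362 lost in MGE. Those 3702 and 2362 came from 113604 merged regions. Gained in both cultures were 638 regions.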

How the results depend on the processing

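The number of regions lost in CTX became 1647 with peaks of −log10 q of at least 3 and 456 with at least 5, and 3608 to 17716 when 1 library was left out; the added readings gave 10934 in libraries numbered 1 and 18092 in those numbered 2. For MGE these were 1403, 584, 2291 to 7539, 11477 and 6787, and 3765 with equal called bases per list. The share near a gene end was 7.53% at −log10 q of at least 3, 11.9% at 5, 8.32% with equal called bases, 5.40% when peaks within 500 bp were merged too, 5.84% to 7.86% with 1 library left out and 7.08% in libraries numbered 1. A −log10 q of at least 3 left 855 (23.2%) of the CTX and 536 (22.8%) of the MGE regions touching a region still lost, and at least 5 left 62 (1.68%) and 37 (1.58%). The mean difference between treatments in the other culture kept its direction under all 22 alternatives run, at 3.48 to 13.4 percentage points (0.267 as a ratio), with exact permutation p from 0.0556 to 1, although its CTX-lost component turned to −0.190 where the lost regions were chosen anew from libraries numbered 2. With the reported regions it was 9.02 within libraries numbered 1 and 7.09 within those numbered 2. Merging peaks within each culture alone was run for the counts of lost regions, and not for this difference or for the share near a gene end. With the replicate number as a block the 8.05 points had an exact permutation p of 0.125, the smallest a block allows. Unknown read depth limits all counts of lost calls, and the cause of these changes was not tested.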
